A study of Mus musculus with 49 samples.

Results

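The genes described here are 10 of the 45252 genes counted in mouse neocortex, namely the cathepsins Ctsb, Ctsc, Ctsd, Ctsh, Ctsl, Ctss and Ctsz, the lysosomal membrane glycoproteins Cd68 and Lamp1, and Grn, which encodes progranulin. They were taken by symbol as genes of the lysosome, and all 10 were abundant enough to be tested. RNAseq had been done on neocortex from 49 mice, whose background was a mix of C57BL/6J and C3H/HeJ, to ask how expression of cytoplasmic TDP-43, and vaccination with TDP-43 peptides, change the transcriptome. The bigenic rNLS8 mice carry NEFH-tTA, which drives the transactivator in neurons, together with tetO-hTDP43ΔNLS, a human TDP-43 that lacks its nuclear localization signal, and they express it once doxycycline is removed from the chow. The monogenic littermates carry the tetO-hTDP43ΔNLS transgene alone and do not express it.

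All mice started the injections at 8 weeks of age, received 5 of them before and 1 after doxycycline removal at 25.5 weeks, and were killed 3 weeks later, at 28.5 weeks. The group ctrl-PBS held 17 monogenic mice given PBS (10 females and 7 males), and TDP-PBS held 10 rNLS8 mice given PBS (4 females and 6 males). In TDP-10+12, 10 rNLS8 mice received peptides 10 and 12 of the glycine-rich domain (6 females and 4 males), and in TDP-15, 12 rNLS8 mice received peptide 15, the C-terminal phosphopeptide (5 females and 7 males). The dose was 40 µg, given as ovalbumin-peptide conjugates with adjuvant and split between intraperitoneal and subcutaneous injection. Each library came from 1 mouse, and no monogenic mouse given peptide is among them, so an effect of the peptides without the transgene is not measured here. The PBS groups received PBS in place of the conjugates, so that peptide and carrier cannot be told apart, and whether these groups had the adjuvant is not given in the sources used here.

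Cathepsins are proteases that are made as inactive proenzymes, carried to the lysosome largely by mannose 6-phosphate receptors and activated by its acid pH. Most are cysteine proteases, whereas cathepsin D is an aspartic protease. Progranulin is a secreted glycoprotein that is also sorted to lysosomes and cut there into granulins, and loss of function of human GRN causes frontotemporal dementia with TDP-43 inclusions. Neurons use the lysosome to clear aggregated protein, and microglia, the resident phagocytes of the brain, express several cathepsins, Cd68 and progranulin at high levels.

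The promoters of these genes hold motifs of different factors, and those of Ctsd, Lamp1, Ctss, Ctsc and Cd68 are shown because they carry them close to the transcription start. Sequences are from RefSeq (GRCm38.p6), in which 8 of the 10 genes were matched, and Ctsb and Ctsh are named only. Each window runs 5′ to 3′ on the strand of the gene, from 160 bases before the start to 10 bases after it. Capitals mark CACGTG, the E-box that MiT factors such as Tfeb bind, including its longer form TCACGTGA in Ctsd, and GAGGAAGT, an ETS motif of the kind bound by the macrophage factor PU.1, in Ctss and Ctsc, where it reads on the opposite strand as ACTTCCTC. In Cd68 they mark TGANTCA, the motif of AP-1.
Ctsd, chr7:142387818-142387987, minus strand: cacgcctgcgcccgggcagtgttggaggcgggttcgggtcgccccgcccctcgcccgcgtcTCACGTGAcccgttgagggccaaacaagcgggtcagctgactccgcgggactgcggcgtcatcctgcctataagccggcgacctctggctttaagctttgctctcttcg
Lamp1, chr8:13159001-13159170, plus strand: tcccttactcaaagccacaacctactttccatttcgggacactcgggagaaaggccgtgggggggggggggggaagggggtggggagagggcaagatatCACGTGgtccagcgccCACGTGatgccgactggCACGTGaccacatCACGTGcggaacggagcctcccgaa
Ctss, chr3:95526626-95526795, plus strand: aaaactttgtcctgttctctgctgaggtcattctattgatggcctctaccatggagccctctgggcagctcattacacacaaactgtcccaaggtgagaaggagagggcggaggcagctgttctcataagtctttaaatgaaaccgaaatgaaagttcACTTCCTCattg
Ctsc, chr7:88277925-88278094, plus strand: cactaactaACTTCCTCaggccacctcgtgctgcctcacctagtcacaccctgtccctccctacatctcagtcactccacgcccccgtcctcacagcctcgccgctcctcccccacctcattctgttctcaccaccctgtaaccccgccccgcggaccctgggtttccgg
Cd68, chr11:69666161-69666330, minus strand: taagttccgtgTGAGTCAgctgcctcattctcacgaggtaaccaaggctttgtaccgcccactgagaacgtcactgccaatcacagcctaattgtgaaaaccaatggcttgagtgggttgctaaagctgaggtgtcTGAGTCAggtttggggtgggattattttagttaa

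Searched on both strands over 250 bases before and 50 after the start, CACGTG was found in 7.15% of the 32851 RefSeq promoters and its longer form in 0.974%. Lamp1 held 4 copies of CACGTG within 61 bases of its start, a number that 0.0244% of all promoters reach or exceed. Ctsd held the longer form 99 bases before its start and another CACGTG at 245 bases, outside the window shown. Ctsl held a CACGTG 236 bases before the start used for it. That start lay inside the annotated span of Ctsl, and so did this CACGTG. The start used for Ctsc also lay inside the annotated span of its gene. GAGGAAGT was found in 3.20% of all promoters, and began 2 bases before the start in Ctss and 151 bases before it in Ctsc. TGANTCA was found in 7.81% of promoters and occurred 149 and 24 bases before the start of Cd68. None of these letters occurred in the windows of Grn and Ctsz. A match describes the letters and does not show that a factor binds there.

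The deposited values were raw counts per gene and mouse, with 17775738 to 21033608 counts per mouse, and levels are given as CPM, the counts scaled to each mouse's TMM-adjusted library size. Tardbp, the endogenous gene of TDP-43, had a mean of 146 CPM in ctrl-PBS and 118 CPM in TDP-PBS (log2 fold change −0.30 ± 0.050 SE, edgeR adjusted p = 1.54e-06), and the human transgene was not counted separately. There were 7 libraries that stood apart. Mice 26, 51, 200 and 243 had over 1000 CPM in summed choroid plexus markers, against at most 371 CPM in ctrl-PBS. TDP-15 mouse 126 was the highest of its group for 9 of the 10 genes, while TDP-15 mouse 184 and TDP-10+12 mouse 242 were the lowest of theirs for 9. Results with and without these mice are given below where they changed.

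The first comparison sets rNLS8 mice against monogenic mice, both given PBS. All rNLS8 mice also carried NEFH-tTA, which the ctrl-PBS mice lacked. Effects of the transactivator and of transgene expression therefore cannot be told apart in any comparison with ctrl-PBS. In TDP-PBS, 9 of the 10 genes were higher than in ctrl-PBS by edgeR's quasi-likelihood test (adjusted p under 0.05), against 21.9% of all 18220 genes tested that were higher. Ctss, Cd68, Ctsd, Ctsh, Grn, Ctsz and Ctsc rose by 1.74-fold to 2.20-fold, Ctsl by 1.27-fold and Lamp1 by 1.12-fold, whereas Ctsb did not pass the test. The median log2 fold change of the 10 genes was 0.88, and that of all genes tested was −0.00038. Since neocortex was sequenced as whole tissue, more RNA per cell and more cells of a type cannot be told apart.

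**Figure D1:**
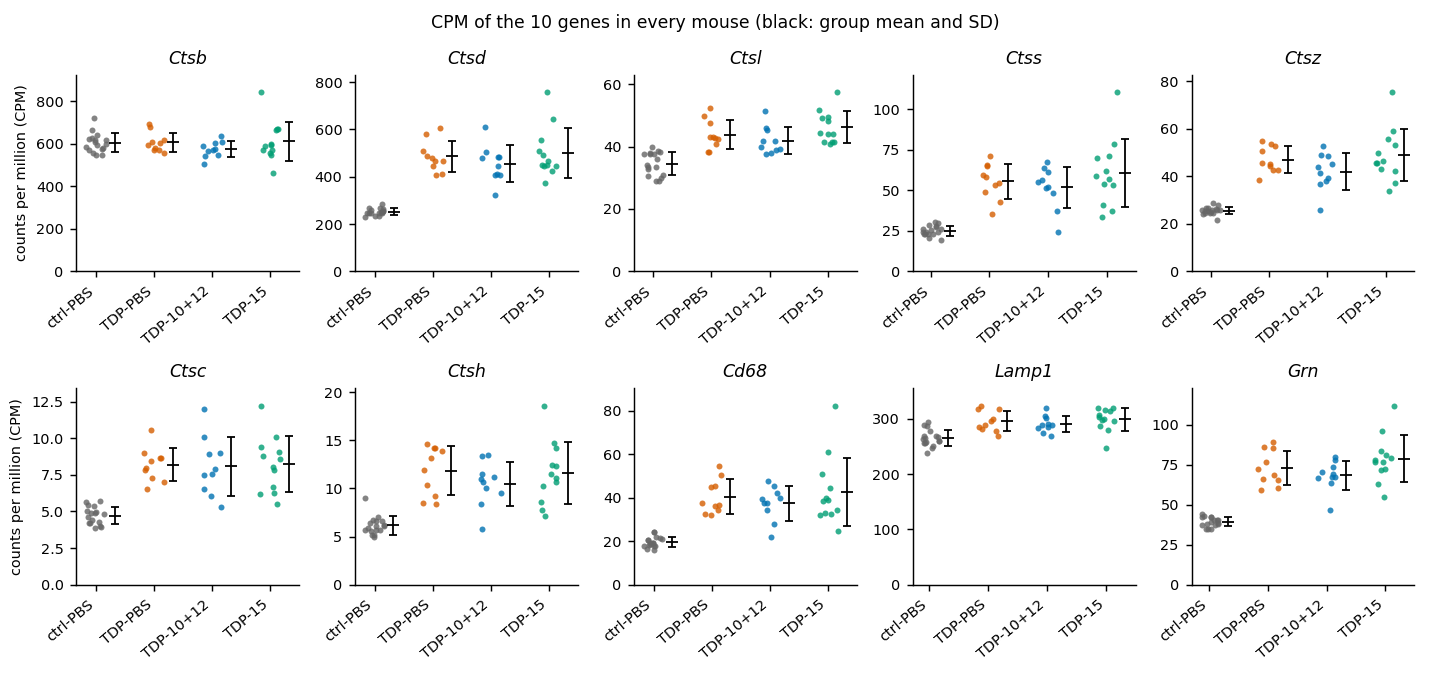
CPM of each of the 10 genes (vertical axis, linear from 0) in every mouse of the 4 groups (horizontal axis), with 1 point per mouse and the group mean and SD in black. The means of the 3 rNLS8 groups lay above that of ctrl-PBS for 9 genes, Ctsb being the exception, and the 3 rNLS8 groups overlapped each other for all 10 genes.

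Cathepsin S, a cysteine protease of microglia and other antigen-presenting cells that stays active at neutral pH, is encoded by Ctss (GRCm38.p6 chr3:95526786-95556405). It lay between 19.4 and 30.6 CPM in ctrl-PBS (median 24.2), and between 35.3 and 71.4 CPM in TDP-PBS (median 56.3). Every TDP-PBS mouse was above every ctrl-PBS mouse, a separation seen for 2.31% of all genes tested. With a log2 fold change of 1.14 ± 0.13 (SE, edgeR adjusted p = 2.44e-10), Ctss changed the most of the 10. It ranged from 24.5 to 67.2 CPM in TDP-10+12 (median 53.6), with mouse 242 inside the control range. In TDP-15 it ranged from 33.5 to 110.3 CPM (median 57.6), where the highest value was that of mouse 126.

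Cd68 (chr11:69664213-69666170), a heavily glycosylated protein of phagocyte lysosomes that is used as a marker of phagocytic microglia, behaved alike. Its level was 15.9 to 24.3 CPM in ctrl-PBS (median 19.2) and 31.9 to 54.8 CPM in TDP-PBS (median 37.1), with no overlap. The log2 fold change was 1.04 ± 0.12 (SE, edgeR adjusted p = 5.96e-10). In TDP-10+12 it lay between 21.7 and 47.7 CPM (median 38.4), and in TDP-15 between 24.7 and 82.3 CPM (median 38.8), so that 9 of 10 and 12 of 12 mice exceeded every control.

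Ctsd (chr7:142375910-142387827) encodes the aspartic endopeptidase of the lysosome. It rose from 229 to 284 CPM in ctrl-PBS (median 249.9) to 407 to 605 CPM in TDP-PBS (median 473), with a log2 fold change of 0.95 ± 0.08 (SE, edgeR adjusted p = 9.24e-15). Its range was 321 to 612 CPM in TDP-10+12 (median 462) and 372 to 756 CPM in TDP-15 (median 459). All 32 rNLS8 mice were above all 17 controls, which held for Ctsd and Grn alone among the 10 genes. The share of all genes tested that separate the 32 mice in this way was not counted. Taken group by group, it was 2.31% in TDP-PBS, 2.23% in TDP-10+12 and 2.45% in TDP-15. In GENCODE M21, 670 of the 2127 exonic bases of Ctsd are also those of Gm49369, which was not among the genes tested.

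Grn (chr11:102430507-102436809) showed the same separation. Control mice had 35.0 to 44.4 CPM (median 39.2) and TDP-PBS mice 59.2 to 89.0 CPM (median 70.4), a log2 fold change of 0.89 ± 0.08 (SE, edgeR adjusted p = 3.27e-14). The level was 46.7 to 79.8 CPM in TDP-10+12 (median 68.3) and 54.8 to 112 CPM in TDP-15 (median 77.5). The lowest of all rNLS8 values, 46.7 CPM, was again mouse 242 and was still above the highest control.

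Ctsz (chr2:174427494-174439039) encodes cathepsin Z, a carboxypeptidase. It had 21.7 to 28.9 CPM in ctrl-PBS (median 25.7), 38.3 to 54.8 CPM in TDP-PBS (median 45.5), 25.8 to 52.7 CPM in TDP-10+12 (median 42.5) and 33.9 to 75.3 CPM in TDP-15 (median 46.1). Only mouse 242 among the rNLS8 mice reached into the control range. The log2 fold change of TDP-PBS was 0.88 ± 0.08 (SE, edgeR adjusted p = 1.64e-12).

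Ctsc and Ctsh rested on the fewest counts, 71 to 367 per mouse. Ctsc (chr7:88278024-88315861), whose product dipeptidyl peptidase I activates the serine proteases of immune cells, lay at 3.90 to 5.70 CPM in ctrl-PBS (median 4.81) and at 6.52 to 10.5 CPM in TDP-PBS (median 8.23). The groups did not overlap, and the log2 fold change was 0.79 ± 0.10 (SE, edgeR adjusted p = 1.17e-08). Ctsc had 5.32 to 12.0 CPM in TDP-10+12 (median 7.71) and 5.50 to 12.2 CPM in TDP-15 (median 8.32), with 1 mouse of each group within the control range.

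Ctsh (chr9:90054267-90076095), the gene of an aminopeptidase, had 4.99 to 9.02 CPM in ctrl-PBS (median 6.05) and 8.38 to 14.6 CPM in TDP-PBS (median 12.5). Here 8 of 10 TDP-PBS mice exceeded every control, the highest of which had 9.02 CPM. The log2 fold change was 0.94 ± 0.12 (SE, edgeR adjusted p = 4.39e-09). It ranged from 5.77 to 13.5 CPM in TDP-10+12 (median 10.9) and from 7.15 to 18.6 CPM in TDP-15 (median 11.3).

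Ctsl and Lamp1 rose by smaller amounts. Ctsl (chr13:64361890-64370772), the gene of a broadly expressed cysteine endopeptidase, went from 29.0 to 39.8 CPM in ctrl-PBS (median 34.2) to 38.3 to 52.4 CPM in TDP-PBS (median 42.9), a log2 fold change of 0.35 ± 0.06 (SE, edgeR adjusted p = 3.79e-06). It had 37.5 to 51.3 CPM in TDP-10+12 (median 40.7) and 41.0 to 57.3 CPM in TDP-15 (median 44.3). All 12 TDP-15 mice were above all controls, against 8 of 10 in TDP-PBS and 5 of 10 in TDP-10+12. In GENCODE M21, 1742 of the 6168 exonic bases of Ctsl are also those of Gm47123 or Gm49230, which were not among the genes tested.

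Lamp1 (chr8:13159161-13175338) encodes the most abundant protein of the lysosomal membrane. It lay at 238 to 295 CPM in ctrl-PBS (median 264), 269.7 to 324 CPM in TDP-PBS (median 293), 269 to 320.4 CPM in TDP-10+12 (median 289) and 247 to 320.0 CPM in TDP-15 (median 302). The log2 fold change of TDP-PBS was 0.16 ± 0.04 (SE, edgeR adjusted p = 0.00038), and 5 of 10 mice were above every control.

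Ctsb (chr14:63122462-63145923), the cysteine protease whose transcript was the most counted of the 10, differed from the others. It had 546 to 721 CPM in ctrl-PBS (median 597), 554 to 694 CPM in TDP-PBS (median 597), 506 to 634 CPM in TDP-10+12 (median 573) and 464 to 841 CPM in TDP-15 (median 592). The log2 fold change of TDP-PBS was 0.0053 (95% interval −0.10 to 0.11, edgeR adjusted p = 0.946), so that a rise like that of Ctsd lay outside the interval. Of the 4743 exonic bases of Ctsb in GENCODE M21, 774 are shared with its neighbour Fdft1, an enzyme gene of sterol synthesis. Fdft1 fell by 0.88 on the log2 scale in TDP-PBS (SE 0.061, edgeR adjusted p = 4.80e-17), to a mean of 51.6 CPM. Whether reads of Fdft1 were counted for Ctsb was not tested, and the strand setting of the counting is not given in the sources used here.

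Levels of different genes were compared only per kilobase of exon (CPM per kb, with GENCODE M21 lengths). On this scale Ctsb, Lamp1 and Ctsd were close together in ctrl-PBS, at 127 ± 9.38, 119 ± 6.80 and 118 ± 6.61 CPM per kb (mean ± SD, n = 17). In TDP-PBS, Ctsd stood at 228.5 ± 30.6 CPM per kb (SD, n = 10), above Lamp1 at 133 ± 8.20 and Ctsb at 128 ± 9.65. Ctss was next in TDP-PBS at 40.8 ± 8.12 CPM per kb, followed by Ctsz, Cd68 and Grn between 31.2 and 32.7, and Ctsl, Ctsh and Ctsc between 1.54 and 7.32. The neighbours Ctsz, Cd68 and Grn did not differ beyond their spread. Annotated lengths may differ from those of the transcripts expressed.

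Vaccinated rNLS8 mice were compared with the same 17 controls. In TDP-10+12, the 9 genes that rose in TDP-PBS were higher again (20.8% of all genes tested were higher), with log2 fold changes from 0.13 ± 0.04 (SE) for Lamp1 to 1.04 ± 0.13 for Ctss. Ctsb had −0.07 ± 0.05 (edgeR adjusted p = 0.297). Only Ctsd and Grn separated all 10 mice from the controls (2.23% of all genes tested did so). The median log2 fold change of the 10 genes was 0.77, beside 0.0031 for all genes tested.

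In TDP-15, 9 genes were also higher (23.7% of all genes tested were higher), with log2 fold changes from 0.17 ± 0.03 (SE) for Lamp1 to 1.27 ± 0.12 for Ctss. Ctsd, Ctsl, Ctss, Ctsz, Cd68 and Grn separated all 12 mice from the controls (2.45% of all genes tested did so). Ctsb had 0.02 ± 0.05 (edgeR adjusted p = 0.829). The median over the 10 genes was 0.92, and that over all genes tested was −0.0015. Without mice 126, 184 and 242, and without all 7 mice that stood apart, the same count of 9 genes was higher in each of the 3 comparisons.

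**Figure D2:**
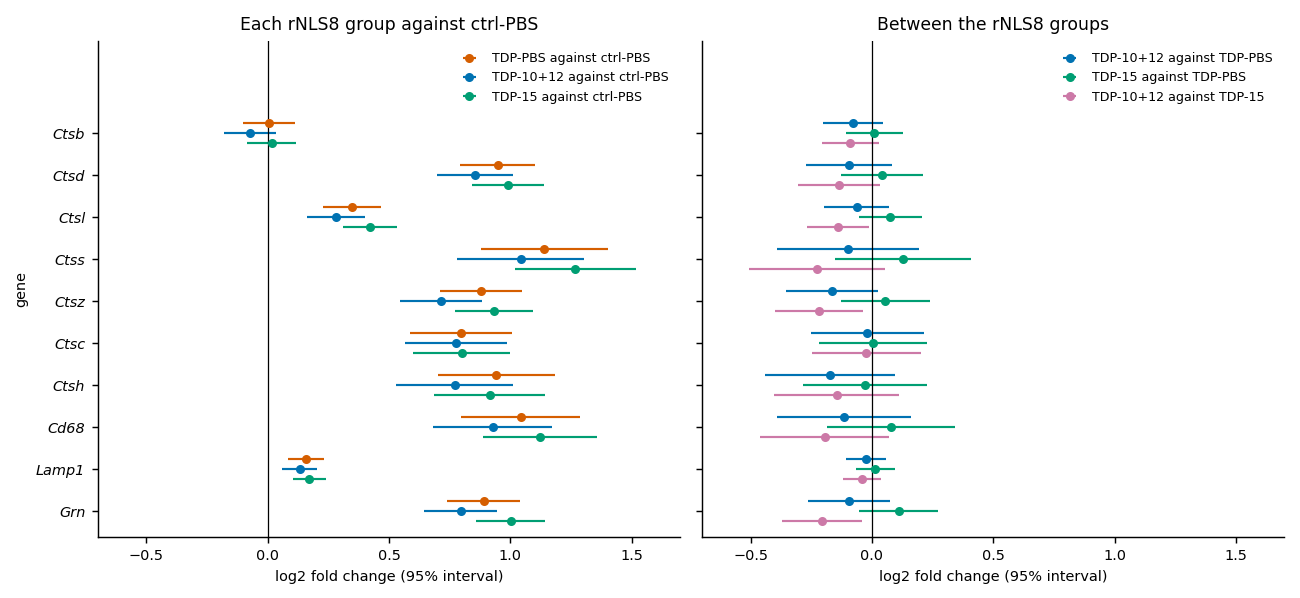
Log2 fold changes (horizontal axis) of the 10 genes (vertical axis) by edgeR, with 95% intervals, for each rNLS8 group against ctrl-PBS on the left and between the rNLS8 groups on the right. On the left the intervals of 9 genes lay above 0 in all 3 groups while those of Ctsb spanned 0, and on the right most intervals spanned 0.

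Whether vaccination changed these transcripts was asked by comparing the rNLS8 groups with each other. None of the 10 genes passed the test in TDP-10+12 against TDP-PBS, in TDP-15 against TDP-PBS or in TDP-10+12 against TDP-15. By edgeR, 0% of all genes tested passed in each of these comparisons, and limma-voom and DESeq2 made 0 calls in each as well. At an unadjusted p under 0.05 there were 0, 0 and 3 of the 10 genes, and 952, 552 and 1244 genes in all.

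Against TDP-PBS, the log2 fold changes of TDP-10+12 lay between −0.17 (Ctsh, 95% interval −0.44 to 0.10) and −0.02 (Ctsc, −0.25 to 0.22). Those of TDP-15 lay between −0.03 (Ctsh, −0.28 to 0.23) and 0.13 (Ctss, −0.15 to 0.41). Without mouse 126, however, Ctss had 0.016 in this comparison, and Cd68, Ctsd and Ctsz turned to −0.047, −0.026 and −0.017. Without mouse 242, the values of TDP-10+12 against TDP-PBS were −0.017 for Ctss and 0.035 for Ctsc. For Ctsd the intervals were −0.27 to 0.08 and −0.13 to 0.21, and for Grn −0.27 to 0.08 and −0.05 to 0.27. The data therefore do not show equal levels, but changes of the size seen between TDP-PBS and ctrl-PBS lay outside these intervals for the 7 genes with the larger increases.

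In TDP-10+12 against TDP-15, all 10 log2 fold changes were below 0, from −0.23 for Ctss (95% interval −0.51 to 0.05) to −0.02 for Ctsc. The 3 genes at an unadjusted p under 0.05 were Grn (−0.21, 95% interval −0.37 to −0.04), Ctsz (−0.22, −0.40 to −0.04) and Ctsl (−0.14, −0.27 to −0.01), with edgeR adjusted p values of 0.614, 0.638 and 0.696. These values rested partly on single mice. Without mice 126, 184 and 242, Grn had −0.14 ± 0.07 (SE, edgeR adjusted p = 0.787), Ctsz −0.12 ± 0.07 (adjusted p = 0.849) and Ctsl −0.10 ± 0.07 (adjusted p = 0.862), and Ctsc changed sign to 0.05 ± 0.10.

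Female and male mice were compared within the PBS-treated groups, where 0 of the 10 genes and 0% of the 17363 genes tested showed a genotype by sex interaction by edgeR. DESeq2 and limma-voom also made 0 calls among the 10 genes, and 0 of the 10 had an unadjusted p under 0.05. The widest differences were those of Ctsh, with a log2 fold change of 1.12 ± 0.14 (SE) in females and 0.80 ± 0.14 in males (difference −0.32 ± 0.20, adjusted p = 0.807), and of Cd68, with 1.22 ± 0.11 in females and 0.93 ± 0.11 in males (difference −0.29 ± 0.15, adjusted p = 0.799). Ctsd was close in both sexes, at 0.98 ± 0.08 and 0.95 ± 0.07.

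Other genes of the lysosome were counted from lists by function, in TDP-PBS against ctrl-PBS. These counts are to be read beside the 21.9% of all genes tested that were higher and the 21.6% that were lower. Among 4 tested cathepsins outside the 10 genes, 3 were higher and the median log2 fold change was 0.25. The 3 that rose ranged from Ctsk, the collagen-degrading cathepsin K, at 0.92 ± 0.19 (SE, edgeR adjusted p = 7.39e-05), to Ctsf at 0.16 ± 0.05 (adjusted p = 0.00739), and Ctso had 0.04 ± 0.07 (adjusted p = 0.731). Of 4 tested cathepsin inhibitors, 2 were higher and 1 lower. Cst7, the gene of cystatin F, an inhibitor that acts inside lysosomes of immune cells, had a mean of 0.0761 CPM in ctrl-PBS and 3.39 CPM in TDP-PBS (log2 fold change 5.37 ± 0.40 SE, edgeR adjusted p = 5.07e-16). Its control level was below that of 3 counts (0.139 to 0.165 CPM), so the fold depends on the prior count of the fit. Cst6 fell by 0.84 on the log2 scale (adjusted p = 1.06e-06).

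By gene count, lysosomal hydrolases and their activators shared the direction of the cathepsins, where 20 of the 33 genes tested rose and 3 fell (median log2 fold change 0.31). Their summed level was close in both groups, with a median of 3708 CPM in ctrl-PBS and 3721 CPM in TDP-PBS. Psap, the gene with the highest CPM of this list, had −0.21 ± 0.04 (SE, edgeR adjusted p = 2.91e-06). Gla, which encodes alpha-galactosidase A, had the largest increase at 0.75 ± 0.07 (SE, edgeR adjusted p = 4.00e-13), and Ids, the gene of iduronate-2-sulfatase, fell by 0.74 (adjusted p = 2.27e-17). Among 19 lysosomal membrane proteins, 11 rose and 3 fell (median 0.15). They ran from Laptm5, a gene of blood-derived cells and microglia, at 0.58 ± 0.09 (adjusted p = 2.39e-07), to Lamp5, which is expressed in neurons, at −1.51 ± 0.09 (adjusted p = 8.32e-19).

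Subunits of the V-ATPase, the proton pump that acidifies the lysosome and also loads synaptic vesicles, moved the other way. Here 13 of 18 fell and 2 rose (median −0.26). The extremes were Atp6v1g2 at −0.68 ± 0.09 (SE, edgeR adjusted p = 7.71e-09) and Atp6v0e at 0.28 ± 0.07 (adjusted p = 0.000597). Genes of sorting to the lysosome were mixed, since 4 of 10 rose and 2 fell (median 0.07). Nagpa, an enzyme that completes the mannose 6-phosphate tag, had 0.65 ± 0.08 (adjusted p = 1.30e-09), and Sort1, the sortilin receptor that takes up progranulin, fell by 0.25 (adjusted p = 3.69e-06). Among 3 tested MiT transcription factors, which bind E-boxes such as those shown above, Tfe3 alone passed the test, at 0.14 ± 0.05 (adjusted p = 0.0118). These lists were drawn up with results of these data already known.

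**Figure D3:**
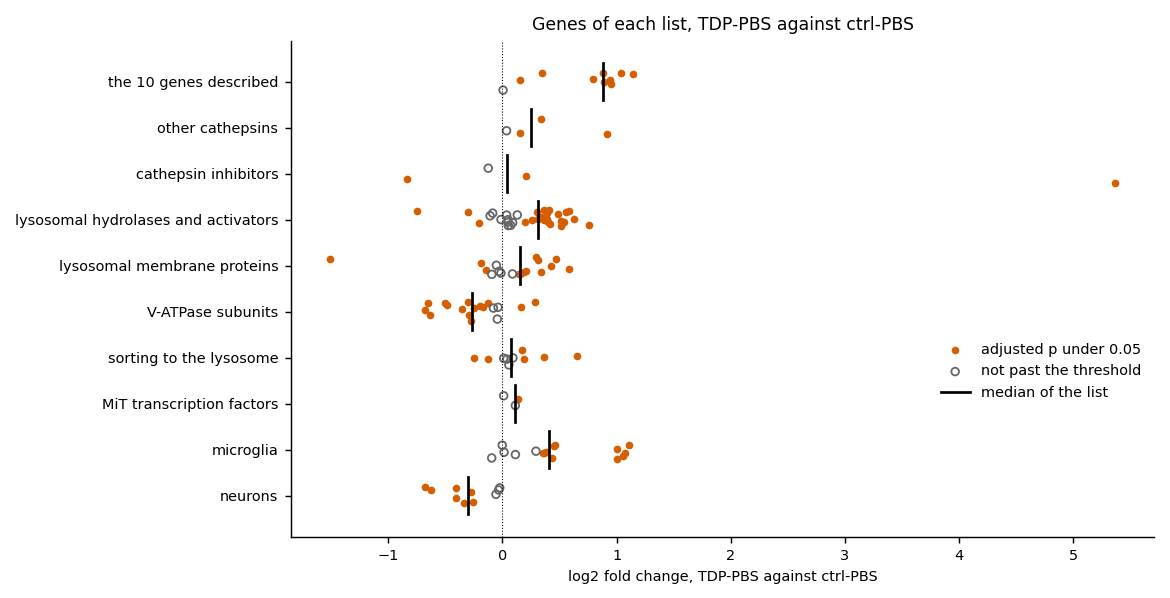
Log2 fold changes of TDP-PBS against ctrl-PBS (horizontal axis) for each gene of the lists on the vertical axis, with filled points for adjusted p under 0.05, open points for the rest and a black bar at the list median. The median was 0.88 for the 10 genes described, 0.31 for hydrolases and −0.26 for V-ATPase subunits, and Cst7 lay farthest to the right at 5.37.

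Markers of different cell types did not all move in the same direction. Of 16 microglial markers, 11 were higher and 0 lower in TDP-PBS, with a median log2 fold change of 0.41. Of all genes tested, 21.9% were higher and 21.6% lower. C1qa, C1qb, C1qc, Ptprc and Tyrobp lay between 1.01 and 1.11, and Tmem119, Siglech and Cx3cr1, genes of homeostatic microglia, rose by less, with 0.46, 0.36 and 0.36. P2ry12, P2ry13 and Sall1, also homeostatic genes, had −0.09, 0.01 and −0.0023 and did not pass the test. The summed microglial level was 344 to 435 CPM in ctrl-PBS, 436 to 644 in TDP-PBS, 347 to 608 in TDP-10+12 and 358 to 847 in TDP-15. Mouse 126 had the highest sum, 847 CPM, and mice 242 and 184 had the lowest of their groups, 347 and 358 CPM. Their part in the levels of the 10 genes was not tested.

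Neuronal markers were lower in 7 of 10 cases, against 21.6% of all genes tested, with a summed level of 9150 to 11138 CPM in ctrl-PBS and 6710 to 8373 CPM in TDP-PBS. Markers of border macrophages and monocytes were higher in 4 of 7 tested, against 21.9% of all genes, with sums of 5.11 to 11.9 CPM in ctrl-PBS and 6.20 to 21.3 CPM in TDP-PBS. The T cell markers Cd3d, Cd3e, Cd3g, Cd8a and Cd8b1 had group means of at most 0.122 CPM in every group, under the level of 3 counts. Cd4, the only gene of that list abundant enough to be tested, fell from a mean of 19.7 CPM in ctrl-PBS to 8.62 CPM in TDP-PBS (log2 fold change −1.19 ± 0.27 SE, edgeR adjusted p = 0.000257). Of 8 astrocyte markers 1 was higher and 2 lower, and of 6 endothelial markers 1 was lower, shares that lie near or below those of all genes. The astrocyte marker that was higher was Gfap, with means of 122 CPM in ctrl-PBS and 381 CPM in TDP-PBS (log2 fold change 1.64 ± 0.18 SE, edgeR adjusted p = 9.87e-11). Its log2 fold change was larger than that of any of the 10 genes. The 2 that were lower were Slc1a2 (−0.35) and Gja1 (−0.29). Log2 fold changes that did not pass the test ran from −0.05 to 0.09 for 6 oligodendrocyte markers, from 0.38 to 1.96 for 5 choroid plexus markers and from −0.44 to 0.11 for 5 blood markers. Against ctrl-PBS, 4 of the 5 choroid plexus markers were higher in TDP-10+12 and 1 was higher in TDP-15. Of all genes tested, 20.8% and 23.7% were higher in these comparisons. The summed choroid plexus level in TDP-10+12 had a median of 37.2 CPM and a highest value of 1700 CPM, and mice 51 and 200 were in this group.

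Each gene was then divided by the summed microglial CPM of the same mouse, as a description with no test. On this ratio Ctsd alone had every TDP-PBS mouse above every control, at 0.570 to 0.733 in ctrl-PBS and 0.788 to 1.04 in TDP-PBS. In TDP-10+12 and TDP-15, Ctsd and Grn alone had every mouse above every control. For Ctss, 9 of 10 TDP-PBS mice were above every control (medians 0.0657 and 0.0988), for Ctsz 8, for Cd68 and Grn 7, for Ctsc 4 and for Ctsh 3. Ctsb, in contrast, was below every control in 10 of 10 TDP-PBS mice (medians 1.62 and 1.083), and Lamp1 in 8 (medians 0.707 and 0.536). For Ctsb this also held in 9 of 10 TDP-10+12 mice and 12 of 12 TDP-15 mice. The ratio depended on the list. When C1qa, C1qb, C1qc and Tyrobp were left out of it, 5 genes, Ctsd, Ctss, Ctsz, Cd68 and Grn, had all 10 TDP-PBS mice above all controls.

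**Figure D4:**
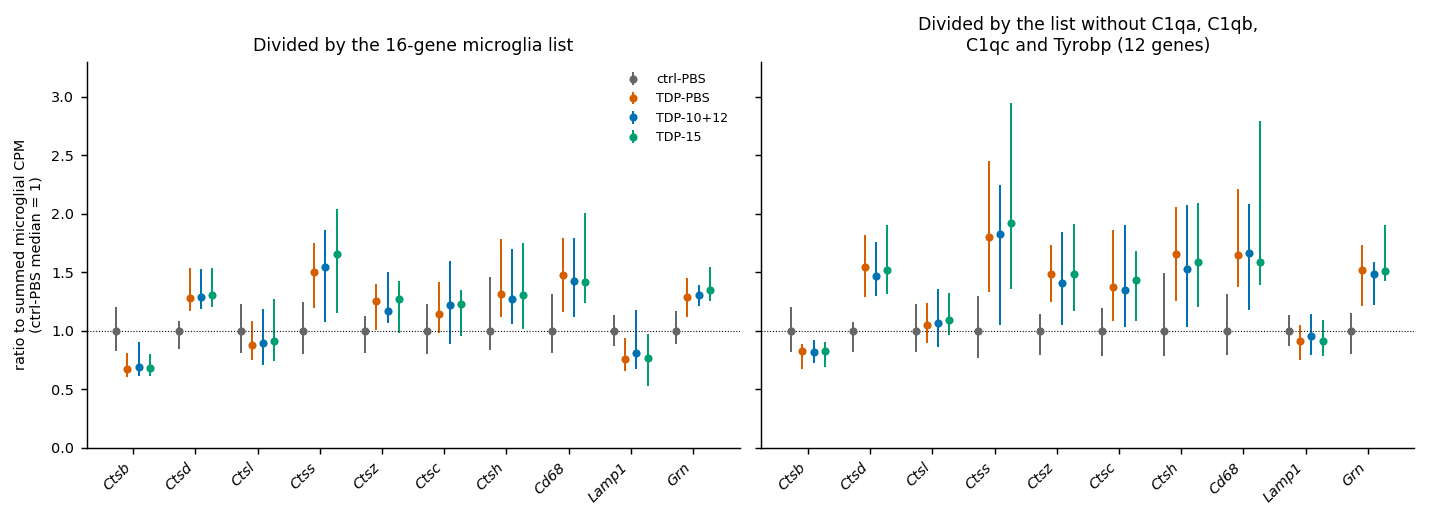
Ratio of each gene's CPM to the summed CPM of microglial markers, set to 1 at the ctrl-PBS median (vertical axis, linear from 0), for the 10 genes (horizontal axis) and 4 groups, with points at the median and bars from the lowest to the highest mouse. With 16 markers on the left, only Ctsd and Grn had TDP-15 and TDP-10+12 bars clear of the control bar in both groups, and with 12 markers on the right the ratios of Ctss, Cd68, Ctsz, Ctsd and Grn were higher.

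Levels of the 10 genes varied together among rNLS8 mice of a group. In the 32 rNLS8 mice, after the mean log2 CPM of each group had been removed, all 45 pairs of the 10 genes correlated positively and 43 passed a permutation test (100000 resamples within groups, Benjamini-Hochberg adjusted over the 45 pairs), while 36 did so by Spearman's rho. The median Pearson r was 0.70. The share of other gene pairs that correlate as closely in these mice was not measured. The closest pair was Ctss and Ctsz (r = 0.88, rho = 0.86, permutation p = 1e-05 for each, the smallest that the resamples can give, adjusted p = 2.65e-05 and 4.50e-05), with r = 0.80 without the 2 mice farthest from the median of Ctss. Ctsb, whose mean did not change, followed the others in this respect, with r = 0.87 to Cd68 (rho = 0.81, permutation p = 1e-05 for each) and r = 0.79 without 2 mice.

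Lamp1 was the least tied to the rest, with a median r of 0.45 to its 9 partners. Its r to Ctsc was 0.22 (rho = 0.09, permutation p = 0.247 and 0.636, adjusted p = 0.247 and 0.636), the lowest of all pairs, and 0.18 without 2 mice. The correlations were weaker without the mice at the extremes of these genes. Without mice 126, 184 and 242, the median r was 0.48, the lowest −0.05 and 32 of 45 pairs passed. Because these mice were chosen by the levels of the same genes, a lower r was to be expected. The drop therefore does not show whether the correlations depend on faulty libraries. The points share libraries and depth, and the summed microglial level was extreme in the same mice.

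In the 17 ctrl-PBS mice, 1 of 45 pairs passed the permutation test, with a median r of 0.08. This was Ctsb and Ctsd (r = 0.73, rho = 0.75, permutation p = 0.00084 and 0.00063, adjusted p = 0.0378 and 0.0283, r = 0.71 without 2 mice). Ctss and Ctsz, the closest pair in rNLS8 mice, had r = 0.08 (rho = −0.05, permutation p = 0.770 and 0.854, adjusted p = 0.983 and 0.986, r = 0.19 without 2 mice). The difference between the genotypes was not tested.

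**Figure D5:**
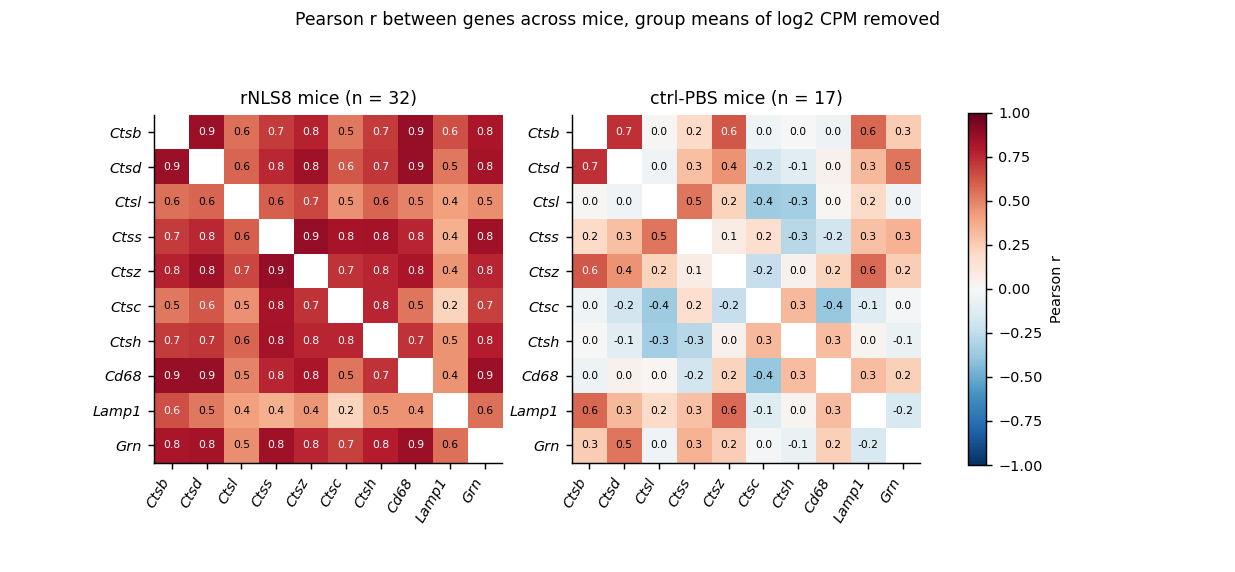
Pearson r of log2 CPM between each pair of the 10 genes (both axes) across the 32 rNLS8 mice on the left and the 17 ctrl-PBS mice on the right, with group means removed and r printed in each cell. In rNLS8 mice r ran from 0.22 to 0.88, and in ctrl-PBS mice from −0.38 to 0.73.

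Genes whose levels followed each of the 10 most closely were named by Pearson r over all 49 mice with group means removed, as a description. For Grn these were C1qa (r = 0.92), C1qb (0.82) and C1qc (0.82), the subunits of complement C1q, which microglia make in the brain. Ctss was nearest to C1qa (0.91), B2m (0.83) and C1qc (0.82), and Ctsc to Ctss (0.74), Lamp2 (0.73) and B2m (0.71). Ctsd was nearest to Ctsz (0.83), Tyrobp (0.82) and Ctsb (0.82), and Ctsz to Ctsd (0.83), Lgmn (0.82), the lysosomal protease legumain, and Ctss (0.82). Cd68 followed Ctsd (0.81), Lag3 (0.80) and Tyrobp (0.80), and Ctsh followed Cd52 (0.75), C1qc (0.74) and Npc2 (0.73), a carrier of lysosomal cholesterol. Ctsb had Ctsd (0.82), Gnai2 (0.79) and C1qc (0.78) beside it.

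Lamp1 and Ctsl had other company. Lamp1 was nearest to Tom1 (r = 0.70), Zfp771 (0.70) and Adrm1 (0.69). Ctsl was nearest to Rps21 (0.66), Itm2b (0.65) and Rpl27a (0.65), among which Rps21 and Rpl27a encode ribosomal proteins.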

How the data were processed

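RNA from about 30 mg of neocortex per mouse underwent paired-end sequencing (100 bp), and the authors aligned the reads to GRCm38.p6. The deposited values are raw counts per gene and mouse, and the submitters' processing notes name HISAT, HISAT2, Bowtie, Bowtie2 and RSEM without roles. Annotation, strand setting and any rounding of estimated counts are not given in the sources used here. Groups, sexes and mouse numbers came from the sample labels, which give no batch.

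Counts were filtered with filterByExpr (at least 10 counts, at least 15 in total, 18220 genes), scaled by TMM (factors 0.929 to 1.06) and fitted for 4 groups together with edgeR's quasi-likelihood test (edgeR 4.0.16, R 4.3.3), without covariates, two-sided, with Benjamini-Hochberg adjustment over all genes tested and a threshold of 0.05. Standard errors were derived from the F statistic. Log2 CPM used a prior count of 2. The genotype by sex interaction was fitted in PBS-treated mice. Alternatives used limma 3.58.1, DESeq2 1.42.0, other filters and scalings, sex as a covariate and leaving out mice. Correlations used numpy 2.4.6 and scipy 1.17.1 under Python 3.11.15, and figures matplotlib 3.10.9. The edgeR test of TDP-PBS against ctrl-PBS was first run on simulated counts with known changes. Depth makes 3 counts 0.139 to 0.165 CPM, and such floors cover counting error only. No 2 libraries of a group were copies: over genes with at least 20 counts, chi-squared divided by its degrees of freedom was 7.24 or more. Gene positions and promoters are from RefSeq (GRCm38.p6) and exonic lengths from GENCODE M21.

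The 10 genes and all lists were chosen with earlier results of these data known. All 10 genes are named, with the extreme called genes of each lysosomal list, the 3 genes closest to each of the 10, and marker genes at the ends of their range. Fdft1, Psap and Tardbp were chosen with their values known.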

Additional observations from a re-analysis of the deposited data

Results flagged for a closer look

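Grn in TDP-10+12 mouse 242 was far from the other mice of its group. It had 46.7 CPM where the next lowest of the 10 mice had 63.8 CPM, so that the gap was 0.517 of the whole range, above Dixon's critical value of 0.466. The groups of 10 mice (TDP-PBS and TDP-10+12) were examined for each of the 10 genes, 20 sets in all, and chance alone flags about 1 in 20. The same mouse was the lowest of its group for 9 of the 10 genes, and its summed microglial level, 347 CPM, was also the lowest of its group.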

How the results depend on the processing

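The counts of the 10 genes called in the 6 comparisons between groups were the same under DESeq2 size factors, upper-quartile factors, no filter, a minimum of 10 counts in all mice, a sex term, a fit restricted to the pair of groups, limma-voom and DESeq2, and with each mouse left out in turn: 9 against ctrl-PBS and 0 between rNLS8 groups. The count for the sex interaction was also 0 under the alternatives run for it, and under the settings other than leaving out single mice the counts of the 7 lysosomal lists stayed within 1.5 times their values. No paired analysis was possible because each number names a separate mouse in 1 group. Signs turned only in log2 fold changes that did not pass the test. With single mice left out, 11 of the 60 values (10 genes, 6 comparisons) took both signs, 7 of them in TDP-15 against TDP-PBS. There, without mouse 126, Ctsb had −0.040, Ctsc −0.061, Ctsd −0.026, Ctsz −0.017 and Cd68 −0.047. Lamp1 had −0.00053 without mouse 42, and Ctsh 0.022 without mouse 184. Ctsb had −0.018 in TDP-PBS against ctrl-PBS without mouse 82, Ctsc had 0.035 in TDP-10+12 against TDP-PBS without mouse 242, and Ctsc had 0.042 in TDP-10+12 against TDP-15 without mouse 126. With limma-voom, TDP-15 against TDP-PBS had −0.00025 for Ctsb and −0.016 for Ctsc. The sets of mice left out below were chosen after seeing the data. Without mouse 126, Ctsb had −0.034 in TDP-15 against ctrl-PBS. Without mice 126 and 242, TDP-10+12 against TDP-15 had 0.096 for Ctsc and 0.0059 for Ctsh. Without mice 126, 184 and 242, Ctsb had −0.0037 in TDP-15 against ctrl-PBS and −0.0090 against TDP-PBS, and Ctsc had 0.035 in TDP-10+12 against TDP-PBS, −0.018 in TDP-15 against TDP-PBS and 0.053 in TDP-10+12 against TDP-15. Without the 7 mice that stood apart, TDP-10+12 against TDP-PBS had 0.022 for Ctsc, 0.015 for Ctss and 0.00034 for Cd68, TDP-15 against TDP-PBS had −0.0035 for Ctsb and −0.0073 for Cd68, and TDP-10+12 against TDP-15 had 0.016 for Ctsc and 0.0076 for Cd68. The median r between the genes in rNLS8 mice, 0.70, was 0.70 with a prior count of 0.5 and with DESeq2 size factors, 0.57 without the 2 mice farthest from the median and 0.48 without mice 126, 184 and 242. The number of genes whose ratio to microglial markers was higher in all TDP-PBS mice than in all ctrl-PBS mice rose from 1 to 5 when C1qa, C1qb, C1qc and Tyrobp left the list. These 4 markers had themselves risen by 1.01 to 1.11 on the log2 scale. Depth limits Ctsc and Ctsh most, with 71 counts in the lowest mouse.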

Other observations

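The balance of the reads that fell on the 10 genes shifted. Ctsb took 47.3% ± 1.21 of their summed CPM in ctrl-PBS (SD, n = 17) and 36.4% ± 1.12 in TDP-PBS (SD, n = 10), and 35.8% ± 1.246 in TDP-15 (SD, n = 12). Ctsd took 19.7% ± 0.677 in ctrl-PBS, 29.05% ± 1.44 in TDP-PBS and 29.15% ± 1.615 in TDP-15. Ctsl kept a like share, at 2.71% ± 0.306 in ctrl-PBS and 2.63% ± 0.1895 in TDP-PBS. These are shares of counts and not of molecules, since longer transcripts give more reads.

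The spread among mice differed between genes and groups. The coefficient of variation of Ctss was 12.3% in ctrl-PBS, 19.9% in TDP-PBS, 24.8% in TDP-10+12 and 34.4% in TDP-15, and that of Cd68 was 12.1% in ctrl-PBS and 36.8% in TDP-15. For Lamp1 it was 5.71% in ctrl-PBS, 6.18% in TDP-PBS, 5.23% in TDP-10+12 and 6.90% in TDP-15. The values of TDP-15 include mouse 126, with 110.3 CPM of Ctss and 82.3 CPM of Cd68, and the spread was not compared between groups by a test.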
